A study of Mus musculus with 2 samples.

Results

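Endothelial nitric oxide production and the cyclic GMP response to it were described through 8 genes in single cells of mouse neck lymphatic vessels. The members were chosen by name: Nos3, Ddah1, Ddah2, Gucy1a1, Gucy1a2, Gucy1b1, Prkg1 and Pde5a, 8 of the 23521 genes listed in the tables. All 8 were present in both tables. The mice were of the FVB/N strain and carried Prox1-GFP, a fluorescent reporter of the lymphatic transcription factor Prox1, in both age groups. Afferent lymphatics of the submandibular nodes were taken from 6 adult mice aged 12 weeks and 6 aged mice aged 93 weeks, and flow cytometry was used to sort the cells for the droplet libraries. Each age was 1 library with its animals pooled, so every difference between ages below is a difference between 2 libraries with no replicate check, and no test of age was possible.

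Nitric oxide synthase 3, encoded by Nos3, makes nitric oxide from arginine in endothelium, and the dimethylarginine dimethylaminohydrolases encoded by Ddah1 and Ddah2 break down methylarginines that inhibit the synthase. Nitric oxide diffuses to neighbouring cells and binds soluble guanylyl cyclase, a dimer of an alpha subunit (Gucy1a1 or Gucy1a2) and the beta subunit (Gucy1b1), which then makes cyclic GMP. Cyclic GMP activates the protein kinase encoded by Prkg1, which relaxes smooth muscle, and the phosphodiesterase encoded by Pde5a degrades it. In collecting lymphatic vessels this path is known for tuning the contractions of the muscle layer.

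The deposit listed 7308 adult cells and 13969 cells under the aged label. Of the adult barcodes, 6977 (95.5%) also stood in the aged table, where the same cells had a median of 6294 UMIs (unique molecular identifiers, counted RNA molecules) against 12434 in the adult table. Shared barcodes were counted once, as adult, which left 6992 aged cells and 14300 cells in all. Median depth was then 12087.5 UMIs per adult cell and 11663.5 per aged cell. The aged table lists row numbers in place of gene names. Over the shared cells the adult row of each of the 8 members correlated best with the aged row in the same place. The r ranged from 0.434 for Ddah1 to 0.893 for Prkg1. The margin was smallest for Ddah1, whose best other aged row had r of 0.386.

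Cells were grouped by fixed marker genes without using the members. The lymphatic endothelial-like class held 275 adult and 93 aged cells in 2 clusters. In 1 of them, capillary lymphatic-like with 100 adult and 19 aged cells, Lyve1 was found in 95% and 100% of cells. The other was led by Spp1 and Prox1, had no Lyve1 UMI in its 175 adult and 74 aged cells, and passed the naming rule narrowly (mean log2 fold of lymphatic markers 1.12 over other clusters). The blood endothelial-like class held 563 and 378 cells, in a cluster led by Vwf (365 and 289 cells) and a blood capillary-like cluster led by Rbp7 (198 and 89 cells). The Vwf-led cluster also carried the lymphatic marker Prox1 in 84.4% of adult and 95.2% of aged cells and the reporter eGFP in 81.1% and 93.8%, so its name rests on its blood vessel markers and not on absence of lymphatic ones. An arterial-like cluster led by Cytl1 and Gkn3 held 64 and 40 cells. The smooth muscle-like class held 366 and 264 cells, and fibroblast-like cells numbered 5647 and 6043. A fibroblast cluster led by Mapk9, with the T cell gene Cd3e among its leading genes, was kept apart.

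Levels are counts-per-million (CPM), the UMIs of a gene relative to all UMIs of the cell group, given as adult then aged, and all intervals are exact 95% intervals that cover counting error only. Levels are compared between cell groups for 1 gene at a time, not between genes.

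The 3 cyclase genes are shown by their promoter windows, because 2 of them followed each other across cell groups and the third did not. Sequences are RefSeq's, build GRCm38.p6, 5′ to 3′ on the gene's strand, from 250 bases before to 50 after a transcript start, with the letters GGGCGG, which the factor Sp1 is known to bind, in capitals on either strand. Gucy1b1 lies at chr3:82074662-82074961 and Gucy1a1, in 1 of 2 windows listed, at chr3:82145601-82145900, both on the minus strand. No listed gene stands between those 2 genes. Gucy1a2 lies at chr9:3532099-3532398 on the plus strand.
Gucy1b1: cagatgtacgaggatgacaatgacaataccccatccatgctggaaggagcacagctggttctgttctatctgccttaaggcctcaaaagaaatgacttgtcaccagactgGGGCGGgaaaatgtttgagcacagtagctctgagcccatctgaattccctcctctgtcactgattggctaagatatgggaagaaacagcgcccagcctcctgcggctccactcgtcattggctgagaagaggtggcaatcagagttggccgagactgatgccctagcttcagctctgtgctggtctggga
Gucy1a1: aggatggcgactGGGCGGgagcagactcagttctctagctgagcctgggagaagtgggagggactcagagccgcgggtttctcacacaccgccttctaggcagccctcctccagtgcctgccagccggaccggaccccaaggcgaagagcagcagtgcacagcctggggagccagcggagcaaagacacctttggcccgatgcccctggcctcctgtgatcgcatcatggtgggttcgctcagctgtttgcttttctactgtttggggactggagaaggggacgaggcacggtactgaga
Gucy1a2: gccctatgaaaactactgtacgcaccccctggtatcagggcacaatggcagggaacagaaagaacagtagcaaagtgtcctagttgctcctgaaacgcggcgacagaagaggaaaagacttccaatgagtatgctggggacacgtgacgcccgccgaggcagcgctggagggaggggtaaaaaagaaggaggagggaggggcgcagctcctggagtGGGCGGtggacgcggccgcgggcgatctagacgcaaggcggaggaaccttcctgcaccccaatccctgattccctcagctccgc
Each of the 3 windows held GGGCGG 1 time, as did 35.7% of 32851 promoter windows of the same length at least 1 time. The second Gucy1a1 window, at chr3:82145024-82145323, held none, so the match in Gucy1a1 depends on the window shown. None of the 3 held a CArG box, the element bound by serum response factor in many smooth muscle genes (found in 1.63% of all windows), or TATAAA (13.6%). Windows were found for 7 of the 8 members.

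The source gene Nos3 was an endothelial gene in these libraries. Its level was highest in arterial-like cells, at 542 CPM (interval 477 to 614) in the adult and 469.9 (391 to 559) in the aged library. The Vwf-led cluster followed at 269 and 448 CPM. The Spp1-led lymphatic cluster had 187 and 177 CPM, and the blood capillary-like cluster 85.4 and 78.0. Capillary lymphatic-like cells were lowest among endothelium at 24.0 and 39.2 CPM, with a Nos3 UMI in only 3 of the 19 aged cells. Smooth muscle-like cells had 3.82 and 1.69 CPM, and fibroblast-like cells 0.621 and 0.369. The adult order of the 5 endothelial groups had no overlapping neighbours, whereas in aged cells the intervals of the arterial-like and Vwf-led groups overlapped, as did those of the 2 capillary groups. As shares of cells, 38.9% of adult and 43.0% of aged lymphatic endothelial-like cells held a Nos3 UMI, at median depths of 5981 and 5478 UMIs. In fibroblast-like cells, which are not known for this gene, the shares were 0.761% and 0.447% at median depths of 13056 and 12186 UMIs.

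Nos3 also varied among lymphatic endothelial-like cells by subcluster. Its level was 22.5 and 45.2 CPM in the capillary lymphatic-like subcluster led by Lyve1, where the aged value rests on 4 UMIs in 21 cells (interval 12.3 to 116). The subcluster led by Spp1 and Coch had 73.8 and 83.0 CPM. The subclusters led by Cmah, by Cd74 and by Tmem108 had 198 and 140, 248 and 390, and 319 and 176 CPM in that order. They held 63 and 20, 32 and 10, and 16 and 20 cells. The Cd74-led subcluster had Vwf, Olr1 and Neurl3 among its leading genes, as did the Vwf-led blood endothelial-like cluster. Blood endothelial markers were also present in lymphatic endothelial-like cells. Over the whole class 7 of the 10 fixed blood endothelial markers were found in 10% or more of its cells at both ages, with a summed level of 2602 and 3094 CPM. Flt1 was found in 52.6% of the adult cells of the Spp1-led cluster and in 4% of the adult capillary lymphatic-like cells, whereas Emcn was found in 84% and 88%. Without cells that held 2 or more defining markers of another class, Nos3 in the lymphatic class was 100.3 and 121 CPM. This took out 82 adult and 35 aged cells, which held 121 of 234 adult and 45 of 82 aged Nos3 UMIs. Flt1 and Emcn are among the defining blood endothelial markers, so cells of the Spp1-led cluster with both were taken out too. The part of such cells was not tested further.

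The 2 methylarginine hydrolases were spread over different cells. Ddah1 was highest in the Spp1-led lymphatic cluster, at 175 CPM in adult and 195 in aged cells, and within it in the Coch-expressing subcluster at 292 and 443 CPM. The capillary lymphatic-like subcluster had 37.4 and 147 CPM. Its aged value rests on 13 UMIs in 21 cells, and the interval of 78.1 to 251 includes the aged level of the Spp1-led cluster. Blood endothelial-like cells had 31.4 and 61.3 CPM, arterial-like cells 21.8 and 41.0, fibroblast-like cells 6.43 at both ages, and smooth muscle-like cells 1.74 and 3.95. Ddah2 went the other way. Fibroblast-like cells had 265 and 264 CPM with UMIs in 90.4% of cells at both ages, and the fibroblast cluster kept apart had more, 285 and 309.8 CPM. Fibroblast-like cells held 89.7% of the adult and 94.9% of the aged Ddah2 UMIs. Smooth muscle-like cells had 107 and 92.5 CPM, arterial-like cells 100.2 and 93.2, blood endothelial-like cells 61.2 and 69.1, and lymphatic endothelial-like cells 24.9 and 57.3. Among lymphatic endothelial-like cells with a Nos3 UMI, 57 of 107 adult and 30 of 40 aged cells held a UMI of either hydrolase. In blood endothelial-like cells the numbers were 152 of 353 and 125 of 259. Cell depth sets part of such counts, and their difference between ages was not tested.

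**Figure D1:**
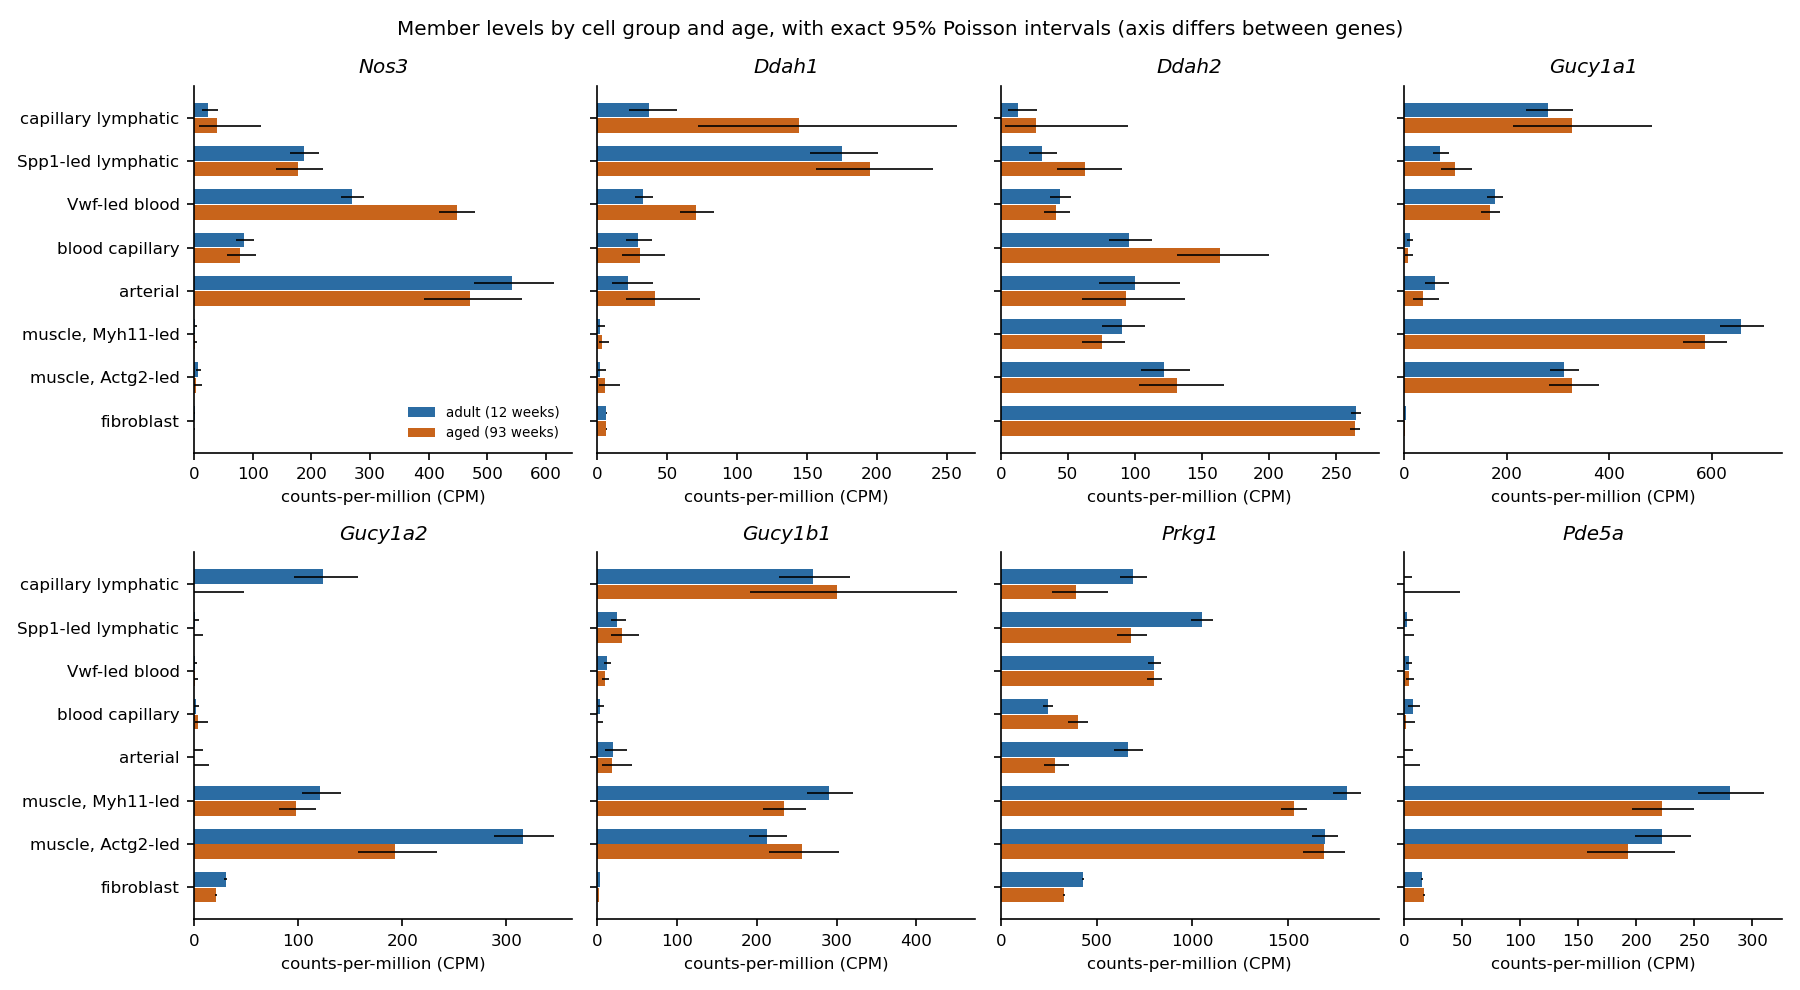
Level of each of the 8 genes (horizontal axis, CPM of the group, a separate scale per gene) in 8 cell groups (vertical axis) of the adult and aged libraries, with exact 95% Poisson intervals as lines. Nos3 stood in endothelial groups, Ddah2 was highest in fibroblast-like cells among the 8 groups drawn, and Gucy1a1, Gucy1b1, Prkg1 and Pde5a were highest in or shared by the muscle groups, with capillary lymphatic-like cells high for Gucy1a1 and Gucy1b1.

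Among the classes, the responder genes had their highest levels in smooth muscle-like cells. Gucy1a1, an alpha subunit, had 478 CPM in adult and 507 in aged smooth muscle-like cells, with UMIs in 85.5% and 87.5% of cells. Gucy1b1, the obligatory beta subunit, had 250 CPM (interval 232 to 269) and 240.2 (218 to 264). These muscle-like cells were 5.01% of adult and 3.78% of aged cells and held 60.6% and 67.4% of all Gucy1b1 UMIs. Fibroblast-like cells, 77.3% of adult and 86.4% of aged cells, held most UMIs of Gucy1a2, Prkg1 and Pde5a. Their shares were 72.3% and 85.4% for Gucy1a2, 70.5% and 80.1% for Prkg1, and 57.8% and 74.8% for Pde5a. Capillary lymphatic-like cells were a second group with both subunits. In them Gucy1a1 stood at 281 and 327 CPM and Gucy1b1 at 269.8 and 301 CPM, so their Gucy1b1 intervals overlapped those of smooth muscle-like cells at both ages. The Spp1-led lymphatic cluster had 71.0 and 98.5 CPM of Gucy1a1 and 24.5 and 31.3 of Gucy1b1.

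Subunits did not always come together. The Vwf-led endothelial cluster had 177 and 167 CPM of Gucy1a1, more than the Spp1-led lymphatic cluster, but 11.9 and 9.48 CPM of Gucy1b1, less than that cluster. The intervals of the 2 clusters did not overlap for Gucy1a1 at either age or for aged Gucy1b1, and they just touched for adult Gucy1b1. Blood capillary-like cells had little of either, with Gucy1a1 at 10.9 and 7.09 CPM and Gucy1b1 at 3.41 CPM in adult and no UMI in aged cells. Fibroblast-like cells had 3.29 and 2.29 CPM of Gucy1a1 and 3.16 and 1.91 of Gucy1b1. Inside the fibroblast-like class 1 cluster, led by Pcdh11x and Fhl2, stood above the rest at 51.8 and 16.2 CPM of Gucy1a1 and 39.1 and 26.3 of Gucy1b1.

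The second alpha subunit, Gucy1a2, had a different map. It stood at 222 and 127 CPM in smooth muscle-like cells, 30.2 and 21.04 in fibroblast-like cells, and 1.14 and 1.62 in blood endothelial-like cells. No UMI of it was found in arterial-like cells, where 3 counts would be 6.53 and 11.2 CPM. In the lymphatic class 67 of the 68 adult UMIs lay in capillary lymphatic-like cells, where the level was 124 CPM, and the aged class had none. As a share of the UMIs of both alpha subunits, Gucy1a2 made up 31.7% in adult smooth muscle-like cells, 30.6% in adult capillary lymphatic-like cells, 0.575% in the adult Vwf-led cluster and 90.2% in fibroblast-like cells of either age. The share is compared between cell groups and ages, and is not read as a comparison of the 2 genes.

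The alpha share also divided smooth muscle-like cells. It was 16.1% and 11.2% in the subcluster led by Krt17, where Myh11 was found in 100% and 97.1% of cells, and 12.7% and 18.7% in the subcluster led by Sorbs2. It was 51.8% and 39.1% in the subcluster led by Ednrb and Cyp4b1, and 49.2% and 33.8% in the one led by Actg2. The Ednrb-led subcluster scored higher for pericyte than for smooth muscle markers (mean log2 fold 1.05), though no pericyte marker was among its leading genes. It carried the channel genes Kcnj8 and Abcc9 in 82.8% and 94.8% of adult cells. Rgs5, a pericyte marker, was found in 87.9% and 94.7% of its cells, Myh11 in 58.6% and 47.4%, and Cnn1 in 5.17% and 2.63%. The subcluster led by Cxcl13 and C3, of which Cxcl13 also led a fibroblast-like cluster, had 38.3% and 23.0%. Its cells had a median of 18127.5 UMIs, with the fibroblast markers Pdgfra in 85.7% and 95.5% and Col1a1 in 97.6% and 100% of them. Whether they were mixtures of muscle and fibroblast cells was not tested. The subcluster led by Col12a1 had 44.4% and 34.8%. In it the collagen gene Col1a1 was found in 76.2% of adult cells, and Myh11 in 33.3% of adult and 17.6% of aged cells. The Ednrb-led subcluster, with its pericyte markers, had the highest Gucy1a2 of all, 549 and 321 CPM.

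**Figure D2:**
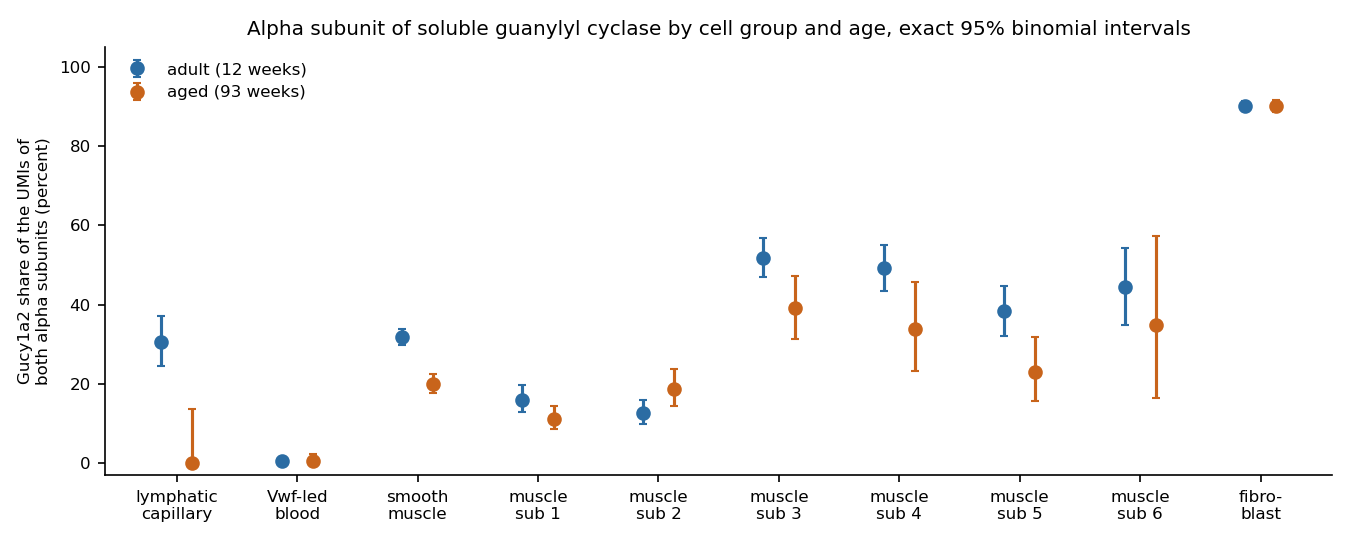
Share of Gucy1a2 among the UMIs of Gucy1a1 and Gucy1a2 (vertical axis, percent) by cell group and age, with exact 95% binomial intervals as lines. The share was lower in aged cells in 5 of the 6 subclusters of the smooth muscle-like class and higher in subcluster 2. The intervals overlapped in all but subcluster 5, which carried the fibroblast marker Pdgfra in 85.7% of adult and 95.5% of aged cells. In fibroblast-like cells the share was 90.2%.

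Prkg1, the kinase that carries the signal in muscle, was broad. Its level was 1745 and 1576 CPM in smooth muscle-like cells, 935 and 638 in lymphatic endothelial-like cells, 616 and 709 in blood endothelial-like cells, 662 and 283 in arterial-like cells and 428 and 331 in fibroblast-like cells. A single aged blood endothelial-like cell held 163 of the 1746 aged UMIs of that class. In arterial-like cells 1 cell held 36 of 304 adult and 1 held 24 of 76 aged UMIs. In lymphatic endothelial-like cells the numbers were 70 of 1613 and 44 of 334. Pde5a was narrower. It stood at 250.3 and 213 CPM in smooth muscle-like cells, 15.2 and 16.9 in fibroblast-like cells, and 5.23 and 3.66 in blood endothelial-like cells. Lymphatic endothelial-like cells had 3 adult UMIs and none in aged cells, with an exact upper limit of 7.05 CPM there, and arterial-like cells had none. Within smooth muscle-like cells Pde5a ranged from 297 to 381 adult CPM over the subclusters 1 to 4, against 97.3 in the Cxcl13-led and 22.7 in the Col12a1-led subcluster.

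The same cell often held both subunits of the cyclase in smooth muscle. A UMI of Gucy1b1 and of an alpha subunit was found in 255 of 366 adult (69.7%, interval 64.7% to 74.3%) and 178 of 264 aged smooth muscle-like cells (67.4%, 61.4% to 73.0%). With every cell thinned to 5324 UMIs the shares were 63.3% and 64.2%. Before thinning, Gucy1b1 was found in 74.3% and 71.2% of these cells and Gucy1a1 in 85.5% and 87.5%. Whether genes met in a cell more often than their single shares give was not tested, here or for Nos3 below. All 4 steps together, both subunits with Prkg1 and Pde5a, were found at equal depth in 43.4% of 251 adult and 44.4% of 151 aged cells. In capillary lymphatic-like cells both subunits were found in 54 of 100 adult and 8 of 19 aged cells before thinning, and none of them held all 4 steps, which in 100 adult cells allows up to 3.62%. The Spp1-led cluster reached 5.71% and 8.11%, the Vwf-led cluster 5.75% and 3.81%, and fibroblast-like cells 2.001% and 0.877% before thinning. Source and responder genes met in few Nos3 cells of the whole class: 11 of 107 adult and 6 of 40 aged lymphatic endothelial-like cells with a Nos3 UMI also held both subunits of the cyclase. The clusters differed in this: it was 6 of 12 adult and 3 of 3 aged cells in the capillary lymphatic-like cluster, against 5 of 95 and 3 of 37 in the Spp1-led one.

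**Figure D3:**
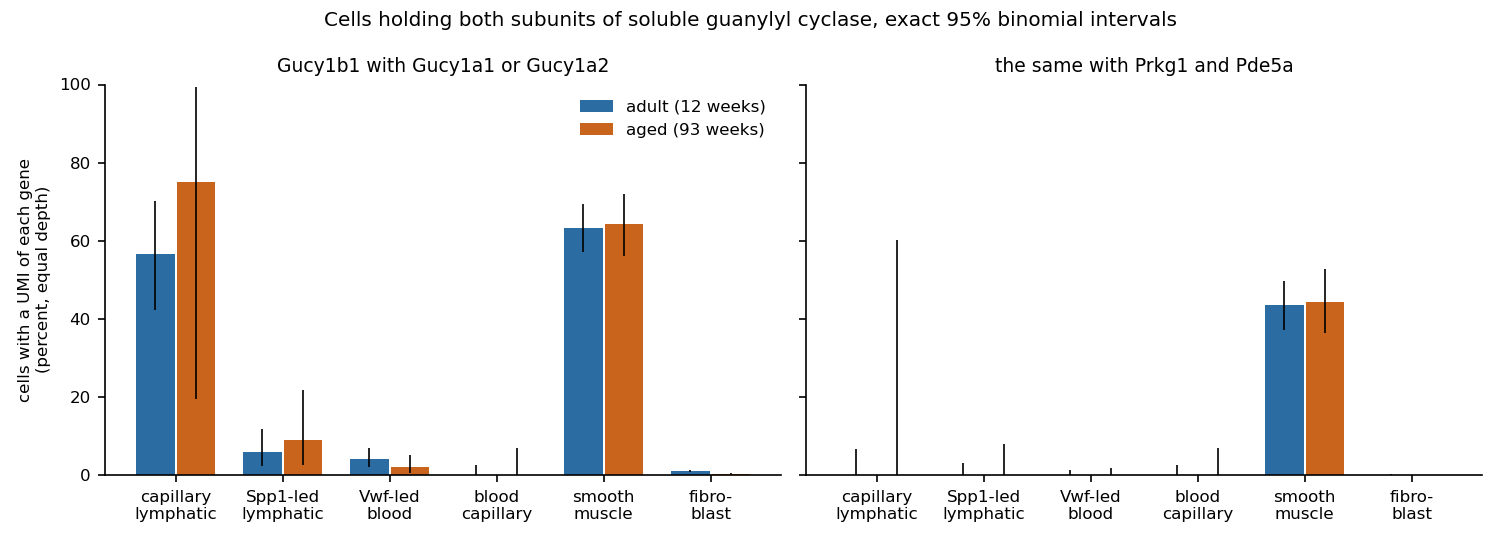
Percent of cells, thinned to 5324 UMIs, with a UMI of Gucy1b1 and an alpha subunit (left) and of these with Prkg1 and Pde5a (right) by cell group and age, with exact 95% binomial intervals as lines. Smooth muscle-like cells held all 4 steps in 43.4% (adult) and 44.4% (aged) of cells and the endothelial groups in none, and the aged capillary lymphatic-like bar rests on 4 cells.

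Across 22 clusters of 50 or more cells, the levels of Gucy1a1 and Gucy1b1 followed each other (Pearson r of 0.954 on log2 CPM), and each was the gene most like the other among all genes with 1000 or more UMIs. Gucy1a2 followed them less, with r of 0.189 and 0.405, and was most like Ift81 (0.905), A830082K12Rik and Etv1. After its partner, Gucy1a1 was most like Mical2 and Dbndd2, and Gucy1b1 most like Mical2 and Mylk, the kinase of muscle myosin. Nos3 was most like Acer2 (0.980), Egfl7 and Icam2, the last 2 known from endothelium, and Pde5a most like Msrb1 (0.953), Pja1 and Gpr180. Ddah1 was most like Rab11a (0.932), Clca3a1 and Tbkbp1, Ddah2 most like E2f1 (0.973), 1810055G02Rik and Sult5a1, and Prkg1 most like Usp9x (0.917), Bltp1 and Braf. Over the clusters Nos3 had r of 0.823 with Ddah1 and -0.759 with Ddah2. The points are clusters of the same 2 libraries, most of them fibroblast-like, and these values are descriptions.

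Ages were compared within 4 classes that held 50 or more cells in each library. A gene was measured where 10% or more of the cells of either library held a UMI with 50 or more UMIs summed over ages, and it was called where the level with 1 CPM added differed by 1.5-fold or more. The arterial-like class had too few aged cells for this. Fewer cells of a type and less RNA per cell cannot be told apart from these sums where a class mixes several kinds of cell. For members, values within clusters are therefore given beside those of the class.

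In blood endothelial-like cells, Nos3 and Ddah1 were higher in the aged library, 2 of the 5 members measured. Of all 7247 genes measured there, 11.4% were called, 5.44% as higher and 5.99% as lower. Nos3 had a log2 ratio of 0.80 (interval 0.67 to 0.94), from 208 to 363 CPM. Ddah1 had 0.94 (0.62 to 1.31), from 31.4 to 61.3 CPM. The other 3 measured members, Ddah2 (0.17), Gucy1a1 (0.10) and Prkg1 (0.20), were not called. The Nos3 difference lay in the Vwf-led cluster (269 and 448 CPM) and not in the blood capillary-like cluster (85.4 and 78.0). Within the Vwf-led cells the 2 main subclusters were nearly split by library, so the mix of subclusters and age cannot be told apart. The subcluster led by Foxp2 and Cacna2d3 held 340 adult but 66 aged cells and had 254 and 201 CPM of Nos3, and that led by Pthlh and Cyp1b1 held 26 adult but 223 aged cells and had 503 and 512 CPM. With the 4 subclusters weighted equally the ratio of Nos3 was -0.04 and that of Ddah1 0.97. Ddah1 was higher in aged cells in both, at 34.5 and 71.2 CPM in the first and 14.9 and 70.5 in the second, although the adult value of the second rests on 26 cells. Ddah2 was 95.6 and 163 CPM in blood capillary-like cells and 44.0 and 41.1 in the Vwf-led cluster. With all cells of the aged table, shared barcodes included, Nos3 fell under the threshold at 0.47.

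**Figure D4:**
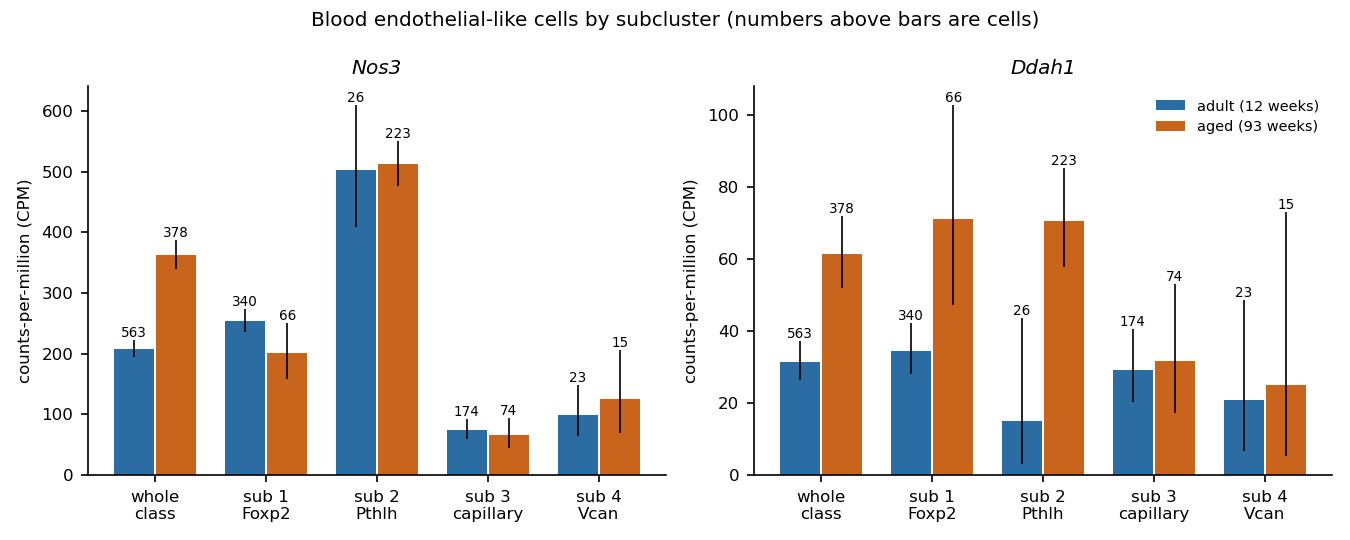
Nos3 and Ddah1 levels (vertical axes, CPM) in blood endothelial-like cells as a whole and in 4 subclusters of the adult and aged libraries, with exact 95% Poisson intervals as lines and numbers of cells above the bars. Nos3 was 208 and 363 CPM in the class, but 254 and 201 in subcluster 1 and 503 and 512 in subcluster 2, while Ddah1 was higher in aged cells in both of these.

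In lymphatic endothelial-like cells, where the aged library had 93 cells, 2 of 7 measured members were called, among 6039 genes of which 17% were called, 7.73% as higher and 9.24% as lower. Ddah2 was higher with age, at 24.9 and 57.3 CPM (1.17, interval 0.48 to 1.91), on 43 and 30 UMIs. With classes set by each cell's own marker UMIs, which gave 120 and 101 lymphatic cells, its ratio was -0.03. Gucy1a2 was lower, with 68 adult UMIs and none in aged cells, which against a floor of 3 counts in the aged class is at least 6.88-fold lower. With counting error of both libraries included, the interval of the log2 ratio ends at -2.44. In the capillary lymphatic-like cluster, which held nearly all of it, the bound is at least 3.15-fold lower over 19 aged cells, and the interval ends at -1.32. In the aged table with shared barcodes included, where copies of adult cells enter, 37 Gucy1a2 UMIs were counted and the ratio was -0.52. Gucy1a2 was also not called with classes set by each cell's own marker UMIs or with cells thinned. Nos3 was 136 and 157 CPM with a log2 ratio of 0.21, and its interval of -0.17 to 0.58 spans no difference and stops just short of the 1.5-fold line. Ddah1 (0.51), Gucy1a1 (-0.05), Gucy1b1 (-0.51) and Prkg1 (-0.55) were not called.

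The lymphatic values differed between the class and its clusters. Gucy1b1 had a negative ratio in the class, yet was 269.8 and 301 CPM in the capillary lymphatic-like cluster and 24.5 and 31.3 in the Spp1-led one. The capillary cluster made up 100 of 275 adult and 19 of 93 aged cells. Prkg1 was past 1.5-fold lower in both clusters, at 689 and 392 CPM in the capillary and 1048 and 680.4 CPM in the Spp1-led cluster, and had a negative ratio in all 5 subclusters, from -0.96 to -0.06. Nos3 went both ways over the 3 subclusters with 50 or more UMIs, with ratios from -0.86 to 0.65.

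In smooth muscle-like cells 1 of 6 measured members was called, Gucy1a2 as lower, where 13.6% of 7723 measured genes were called, 3.72% as higher and 9.87% as lower. Its log2 ratio was -0.80 (interval -1.03 to -0.59), from 639 to 225 UMIs. In the Crispld2- and Myh11-led cluster it was 121 and 98.0 CPM, within the threshold at -0.30, and in the Actg2-led cluster 316 and 193 CPM at -0.71. The lower value stood in 5 of the 6 subclusters, in 4 of them past 1.5-fold, and the Sorbs2-led subcluster had 104 and 133 CPM. The Actg2-led cluster held 186 of 366 adult and 86 of 264 aged cells. With clusters weighted equally the ratio was -0.58, just under the threshold, with all cells of the aged table it was -0.41, and with classes set by each cell's own marker UMIs it was -0.44. The other 5 members were close to even: Gucy1a1 0.09, Gucy1b1 -0.06, Prkg1 -0.15, Ddah2 -0.20 and Pde5a -0.23. Fibroblast markers stood at a summed 7625 and 7026 CPM in this class, and without the Cxcl13-led and Col12a1-led subclusters the ratio of Gucy1a2 was -0.82. No UMI of an epithelial marker was found in adult smooth muscle-like cells, where aged ones had a summed 225 CPM with Krt17 and Krt14 leading 1 subcluster, and their part in the result was not tested.

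In fibroblast-like cells none of the 4 measured members was called, where 5.29% of 8693 measured genes were, 1.78% as higher and 3.51% as lower. Ddah2 differed least, with a ratio of 0.00 (interval -0.03 to 0.03). Pde5a had 0.15, Prkg1 -0.37 and Gucy1a2 -0.50. Single clusters moved further than the class. Prkg1 was lower in 11 of 13 clusters and past 1.5-fold in 7 of them. The Pcdh11x-led cluster had 86.2 and 18.2 CPM of Gucy1a2 on 245 and 71 cells, and the class without it had a ratio of -0.41.

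**Figure D5:**
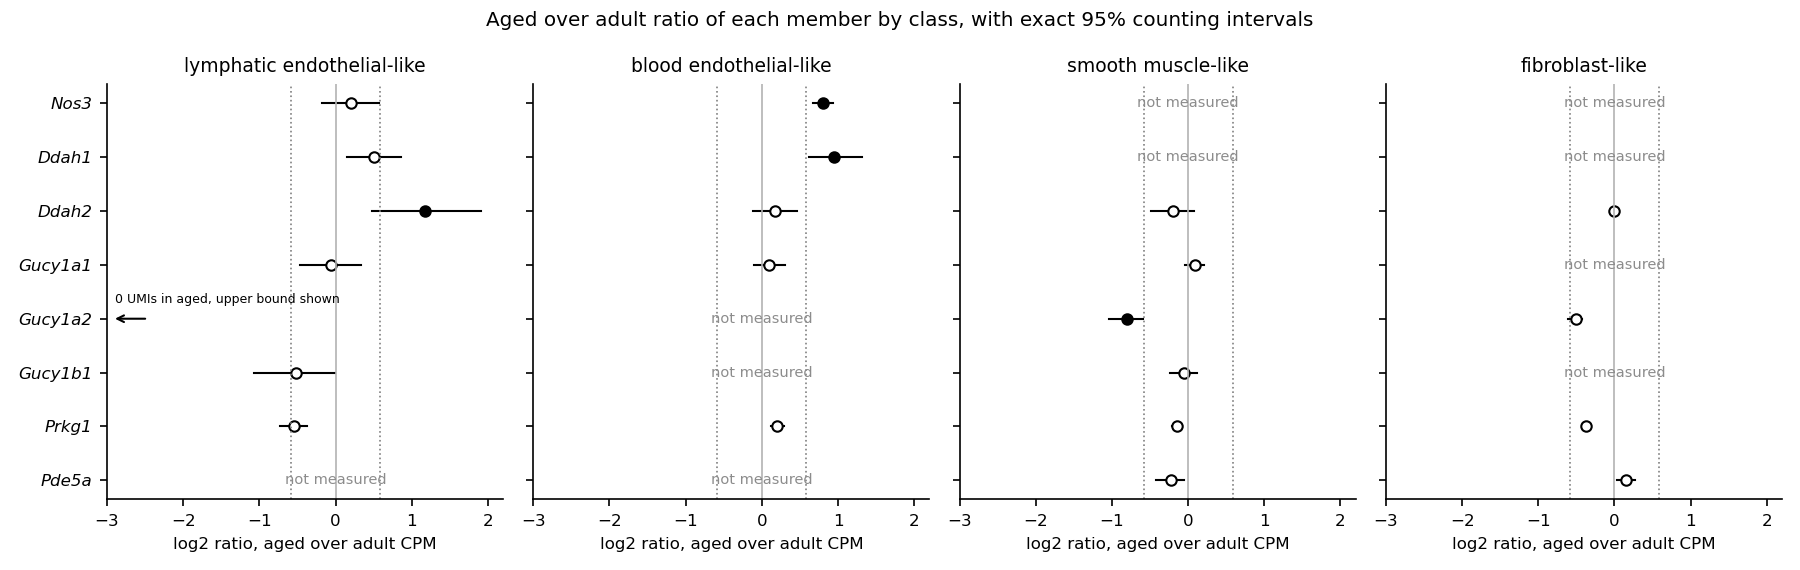
Log2 ratio of aged over adult CPM (horizontal axis) of each member in 4 classes, with exact 95% counting intervals as lines, dotted lines at 1.5-fold, filled points for members past it and an arrow for Gucy1a2 in lymphatic endothelial-like cells, which had 0 aged UMIs. Nos3 (0.80) and Ddah1 (0.94) in blood endothelial-like, Ddah2 (1.17) in lymphatic endothelial-like and Gucy1a2 (-0.80) in smooth muscle-like cells lay past the line.

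The median log2 ratio of the measured members was -0.05 in lymphatic endothelial-like cells (the same with Gucy1a2 at its bound), -0.18 in smooth muscle-like, 0.20 in blood endothelial-like and -0.19 in fibroblast-like cells. Over all measured genes the medians were 0.04, -0.05, 0.03 and -0.04.

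Other genes of the path were taken from a list of 74, of which 72 were in the tables. Their levels are sums over whole classes only, so the mix of clusters and age cannot be told apart for them. In lymphatic endothelial-like cells 8 of 35 measured were higher and 2 lower, where 7.73% and 9.24% of all measured genes were. In blood endothelial-like cells 3 of 41 were higher and 1 lower (5.44% and 5.99% of all). In smooth muscle-like cells it was 2 of 40 and 2 (3.72% and 9.87%), and in fibroblast-like cells 2 of 38 and 1 (1.78% and 3.51%). Slc7a1, a transporter that brings arginine into cells, was higher with age in 3 classes, with log2 ratios of 0.64 (lymphatic), 0.95 (blood endothelial) and 0.89 (fibroblast), or 151 and 235, 112 and 217, and 101.3 and 189 CPM. In fibroblast-like cells the related transporter Slc7a2 was lower, at 21.6 and 10.2 CPM. Cav1, whose product caveolin binds and restrains the synthase, was higher in blood endothelial-like cells at 1193 and 1806 CPM (0.60). Nos1 and Nos2, the neuronal and inducible synthases, were measured in none of the 4 classes.

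In lymphatic endothelial-like cells the called list genes with the largest ratios were Rgs2 (1.12), Pde10a (0.77), Vasp (0.75), Qdpr (0.70), Npr2 (-0.69) and Slc7a1. Rgs2 is a regulator of G-protein signalling that the cyclic GMP kinase acts on, Vasp a cytoskeletal substrate of that kinase, Qdpr a recycling enzyme of the synthase's cofactor, and Npr2 the receptor of C-type natriuretic peptide. The intervals of Qdpr (-0.07 to 1.47) and Npr2 (-1.74 to 0.18) spanned 0. Among cyclases and phosphodiesterases measured in the class, Pde3a was also called (0.62), and Npr1 (0.33), Pde1c (-0.23), Pde2a (0.23) and Pde6d (0.11) were not.

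In smooth muscle-like cells Pln, which restrains the calcium pump until phosphorylated, was higher (149 and 263 CPM, 0.82), as was Rgs4 (222 and 354 CPM, 0.67). Pde10a, a phosphodiesterase of both cyclic nucleotides, was lower (232 and 122 CPM, -0.91), as was Nos1ap (34.8 and 14.1 CPM, -1.24). The phosphodiesterases Pde1a (0.23), Pde3a (0.03) and Pde6d (0.16) were not called. In this class Irag1, which couples the kinase to calcium stores, stood at 242 and 228 CPM and the potassium channel gene Kcnma1 at 153 and 107 CPM.

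In blood endothelial-like cells Pde1c (18.9 and 36.2 CPM, 0.90) was higher and Rgs2 (31.2 and 16.2 CPM, -0.90) lower. Pde2a (0.03), Pde3a (0.19), Pde6d (-0.12), Pde9a (0.50), Pde10a (0.36), Npr1 (0.00) and Npr2 (-0.34) were not called. In fibroblast-like cells Pde10a was higher (92.8 and 145 CPM, 0.64), while Npr1 (-0.19), Npr2 (-0.15), Pde1a (-0.31), Pde3a (0.15) and Pde6d (0.00) were not called.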

How the data were processed

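Droplet single-cell RNA was measured in 1 adult and 1 aged library, grouped by the labels. The authors deposited natural log values, ln(1 + UMIs of a gene scaled to 10000 in each cell), as found from the numbers. Seurat 5.0.3 is named in the submitters' processing notes, which also name builds GRCm39 and mm10 with no role. The aligner was not given in the sources used here. UMIs were recovered from the values of each cell. Cells were clustered on 2000 variable genes without the members or the pathway list (30 principal components, 15 neighbours, Leiden at resolution 1, igraph 0.11.9, numpy 2.4.6). No doublet caller was run, and cells with markers of 2 classes were left out as an alternative. Classes were named from fixed markers (mean log2 fold of 1 or more, 3 markers in 10% of cells), rebuilt here, and may differ from those of the authors. UMIs were summed per class and library (2 Poisson sums, 1 CPM added to ratios, exact intervals by scipy 1.17.1), which was tested on simulated data. The simulation drew Poisson sums, as the intervals assume, so it checked the calculation and not the spread between cells or mice. Named genes were all members, called list genes (at most 6 a class), synthases, cyclases and phosphodiesterases measured, and the 3 genes most like each member. Members, lists and rules were chosen with earlier results of these data known.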

Additional observations from a re-analysis of the deposited data

Results flagged for a closer look

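Pde10a differed between ages in opposite directions in 3 classes, with log2 ratios of aged over adult CPM of 0.77 in lymphatic endothelial-like, -0.91 in smooth muscle-like and 0.64 in fibroblast-like cells. The difference between classes was not tested, as each age is 1 library. Rgs2 was higher in aged lymphatic endothelial-like cells (1.12, on 31 adult and 21 aged UMIs) and lower in aged blood endothelial-like cells (-0.90, on 137 and 40 UMIs), and this difference was not tested either.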

How the results depend on the processing

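No paired analysis was possible because each age is 1 library. The number of members past 1.5-fold in lymphatic endothelial-like cells was 2, and it was 0 with classes set by each cell's own marker UMIs or with cells thinned to equal depth, 1 with all cells of the aged table or with the filter on low counts replaced by a UMI in both libraries, which drops Gucy1a2, and 4 with clusters weighted equally. With cells thinned, 21 of 171 adult and 0 of 48 aged cells of that class still held a Gucy1a2 UMI, and 10.5% and 20.8% a Ddah2 UMI. Whether the filter on low counts took these calls out was not tested. Resolutions of 0.5 and 2 left 19 aged cells in that class and gave no value. In smooth muscle-like cells the number was 1, against 0 with marker UMI classes, all cells of the aged table or clusters weighted equally, 2 in female cells and 3 with the filter replaced. In blood endothelial-like cells it was 2, and 1 with all cells of the aged table, clusters weighted equally or subclusters weighted equally, the last added after the data were seen. In fibroblast-like cells it was 0, and 1 with cells thinned. Single levels in CPM depended on the processing too: over the alternatives 39 were scored as moved and 39 as the same. Leaving out cells with markers of 2 classes moved 12 levels and left 4 the same. Of the single age ratios, 51 moved, 225 stayed the same and 2 changed sign. Of these 2, Ddah2 in lymphatic endothelial-like cells was -0.0283 with marker UMI classes, and Nos3 in blood endothelial-like cells -0.0442 with subclusters weighted equally. The cause was not tested. With 93 aged lymphatic endothelial-like cells, 3 aged UMIs are 5.73 CPM, and members near that level cannot be compared.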
